A study of Mus musculus with 6 samples.

Results

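The genes described here carry the myostatin, activin and TGF-beta signal. They are 10 genes chosen by name, of 53947 genes in each table: the ligands Mstn and Tgfb1, the extracellular binding proteins Fst and Ltbp4, the receptors Acvr1b, Acvr2a and Acvr2b, and the intracellular mediators Smad2, Smad3 and Smad7. All 10 were found in the tables by their Ensembl gene ID and all 10 had enough counts to be tested. The data are ribosomal RNA-depleted total RNA sequencing of the quadriceps, a thigh muscle, from 12-week-old mice, with 3 HSALR libraries and 3 wild-type (WT) libraries. HSALR mice are a model of myotonic dystrophy, made with a transgene of human skeletal actin that bears a long CTG repeat. The transgene is driven by the regulatory sequence of the actin gene and is expressed in skeletal muscle fibres, and its CUG-repeat RNA binds the MBNL splicing factors. The labels give neither the strain nor the sex and do not say whether the WT mice were littermates or whether the numbered libraries came from separate animals, so the p-values below measure the spread between these libraries, which may be technical.

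Myostatin, activins and TGF-beta are secreted dimers that bind a type II receptor, which then phosphorylates a type I receptor. The type I receptor phosphorylates Smad2 and Smad3, which enter the nucleus with Smad4 and change transcription. In muscle, myostatin and activins limit fibre growth, whereas TGF-beta is best known for driving matrix production by fibroblasts.

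The libraries held 11468959 to 13220792 counts in HSALR and 14048603 to 15023710 counts in WT. The small cytoplasmic and nuclear RNAs 7SL and 7SK took 18.9% to 44.0% of the counts in HSALR, against 14.2% to 15.5% in WT, and HSALR library 1 stood apart with the highest share. Summed myofibre marker levels were 71288 to 123056 CPM (counts scaled to library size) in HSALR and 124549 to 137693 CPM in WT. Of these 9 markers 0 had a positive log2 fold change (median -0.31). The edgeR test passed 0 of the 9 (1 lower at an unadjusted p below 0.05, 1 lower with DESeq2, 0 with limma-voom). Fibroblast markers summed to 285.7 to 809.8 CPM in HSALR and 216.6 to 279.0 CPM in WT, and macrophage markers to 211.7 to 630.1 CPM in HSALR and 144.4 to 162.8 CPM in WT. Of the 8 macrophage markers 4 were called higher by edgeR (Adgre1, Cd68, Csf1r and Cd163) and all 8 were higher at an unadjusted p below 0.05, whereas 0 of the 6 fibroblast markers were called by edgeR or limma-voom (4 higher at an unadjusted p below 0.05 and 4 with DESeq2). In both lists HSALR library 1 was the highest, and no marker of the 9 cell type lists was at 0 in any library. In bulk muscle, fewer cells of a type and less RNA per cell cannot be told apart. Calls also followed transcript length. Among the tested protein-coding genes, the median log2 fold change ran from 0.31 in the shortest eighth to -0.18 in the longest.

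Of the 10 genes, Mstn, Acvr2a and Smad3 were lower in HSALR, and none was called higher. Here a gene is called when its p-value from edgeR's quasi-likelihood test, adjusted by Benjamini-Hochberg over all 13576 tested genes, is below 0.05. At an unadjusted p below 0.05, 1 of the 10 was higher (Ltbp4) and 3 were lower, against 2148 higher and 2178 lower of all 13576 tested genes. DESeq2 called the same 1 higher and 3 lower, against 1164 higher and 1264 lower of all tested genes. With limma-voom 0 of the 10 were higher and 3 lower, against 455 higher and 1019 lower of all tested genes. The background is high in this comparison. Of all tested genes 11.8% were called, 4.28% higher and 7.48% lower in HSALR, and in 37.8% the CPM of the HSALR libraries did not overlap that of the WT libraries. Higher genes made up 36.4% of the edgeR calls with TMM scaling and 48.2% with upper-quartile scaling. They made up 9.63% of the 519 calls of another test, limma-trend, on TPM, the deposited length-corrected levels. Among the 10 genes, 3 were called lower and the same 3 had groups that did not overlap. The median log2 fold change of the 10 genes was -0.45, against 0.04 over all tested genes, with 4 positive and 6 negative values. Both counts rest on few libraries: without WT library 1, 2 or 3 or HSALR library 3, only 166, 217, 211 and 185 genes were called in all, with Acvr2a as the 1 call among the 10, whereas 3294 genes were called without HSALR library 2 and 4 of the 10, with Ltbp4 added.

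**Figure D1:**
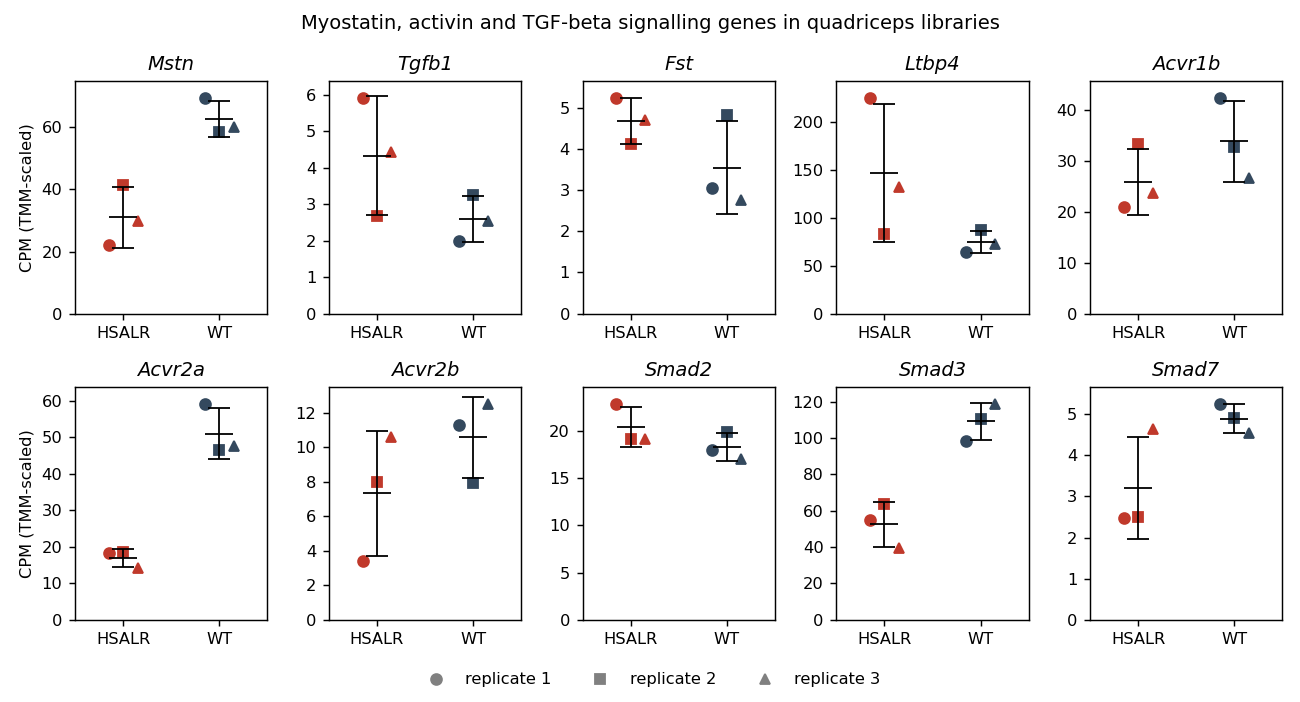
Level of each of the 10 genes in CPM scaled by TMM (vertical axes, each from 0) in the 3 HSALR libraries (left) and the 3 WT libraries (right); marker shapes give the replicate number, and black bars the mean ± SD. All HSALR points lie under all WT points for Mstn, Acvr2a and Smad3, and the groups overlap for the other 7 genes.

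The promoters of the 3 genes that fell are shown because those genes moved in the same direction. Each run is 300 bases from RefSeq (table build GRCm38.p6), 250 before the start given by RefSeq and 50 after it, 5′ to 3′ on the gene's strand. For Mstn that start is the one of the GENCODE annotation, whereas for Acvr2a and Smad3 it lies inside the GENCODE gene, so that the whole Acvr2a window and most of the Smad3 window fall within the gene positions given below. Capitals mark matches, on either strand, to the E-box CANNTG bound by myogenic factors, to the core promoter element TATAAA and to the Smad-binding motif CAGAC. A Smad-binding match that lies on the other strand reads GTCTG in these runs. Each sequence matched GRCm39 exactly and once, at chr1:53100549-53100848 on the plus strand (Mstn), chr2:48703871-48704170 on the plus strand (Acvr2a) and chr9:63665227-63665526 on the minus strand (Smad3).
Mstn: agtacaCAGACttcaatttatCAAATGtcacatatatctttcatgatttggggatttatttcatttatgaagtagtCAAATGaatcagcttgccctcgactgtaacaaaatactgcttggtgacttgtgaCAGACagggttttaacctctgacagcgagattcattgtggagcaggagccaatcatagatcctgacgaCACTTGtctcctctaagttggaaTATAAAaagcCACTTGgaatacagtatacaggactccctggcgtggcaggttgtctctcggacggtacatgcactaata
Acvr2a: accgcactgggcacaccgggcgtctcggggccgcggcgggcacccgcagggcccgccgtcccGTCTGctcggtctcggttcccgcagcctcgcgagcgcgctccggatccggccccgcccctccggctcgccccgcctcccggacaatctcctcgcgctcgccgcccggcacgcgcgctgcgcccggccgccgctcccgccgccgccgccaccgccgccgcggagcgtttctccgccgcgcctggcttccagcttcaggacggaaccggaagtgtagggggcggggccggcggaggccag
Smad3: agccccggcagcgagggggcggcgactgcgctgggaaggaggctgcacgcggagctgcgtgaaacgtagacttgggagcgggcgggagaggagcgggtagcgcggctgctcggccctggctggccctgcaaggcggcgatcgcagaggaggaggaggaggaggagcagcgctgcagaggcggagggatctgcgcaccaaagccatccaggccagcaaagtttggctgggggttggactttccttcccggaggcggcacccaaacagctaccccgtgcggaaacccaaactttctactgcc

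The 3 promoters differed in composition. That of Mstn had 41.3% G and C, against 80.3% in Acvr2a and 67.7% in Smad3, with a median of 52.7% over the 32851 promoters of the table. The Mstn window held 4 E-boxes, beginning at -229, -174, -52 and -19 from the RefSeq start, a TATAAA at -29 and 2 CAGAC matches at -244 and -120, none overlapping another. The Acvr2a window held a single CAGAC match at -188 and no E-box, and the Smad3 window held none of these letters. An E-box was found in 72.3% of all promoters in the table, TATAAA in 13.6% and CAGAC in 49.6%. Of the 10 genes, 7 had an entry, and TATAAA was found only in that of Mstn. The other entries held at most 2 E-boxes (1 of the 3 starts listed for Ltbp4) and at most 1 CAGAC match.

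Among the ligands, Mstn fell to about 0.496 of its WT level. Myostatin is made by the muscle fibres themselves and restrains their size. The gene (ENSMUSG00000026100) lies at chr1:53100799-53107240 on the plus strand in GRCm39. Mstn stood at 22.0, 41.5 and 29.7 CPM in HSALR libraries 1, 2 and 3, against 69.4, 58.6 and 60.0 CPM in WT libraries 1, 2 and 3. These rest on 231, 514 and 443 counts in HSALR and 981, 884 and 807 counts in WT. Every HSALR library was below every WT library, and HSALR library 2 was the closest to the WT range. Against the WT mean, the log2 difference was -1.51, -0.60 and -1.08 in HSALR libraries 1, 2 and 3. The fitted log2 fold change was -1.01 ± 0.21 (SE), with an edgeR adjusted p of 0.0222. HSALR library 1, with the largest difference, also had the highest 7SL and 7SK share and the lowest myofibre marker sum, and the part of the myofibre content in the result was not tested. Without that library the log2 fold change was -0.81 (adjusted p = 0.00924), whereas adding the share of 7SL and 7SK to the model gave -0.58 (adjusted p = 0.0629) and ended the call. The call was also lost without WT library 1, 2 or 3 (-0.93, -1.06 and -1.04, with adjusted p of 0.113, 0.0794 and 0.0850) and without HSALR library 3 (-0.98, adjusted p = 0.0901).

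Tgfb1, the best studied TGF-beta, was near the lower end of detection. The gene (ENSMUSG00000002603) lies at chr7:25386390-25404506 on the plus strand. Tgfb1 had 62, 33 and 66 counts in HSALR libraries 1, 2 and 3 and 28, 49 and 34 counts in WT libraries 1, 2 and 3. On the CPM scale these were 5.90, 2.66 and 4.43 in HSALR and 1.98, 3.25 and 2.53 in WT. The groups overlapped through HSALR library 2. The fitted log2 difference was 0.74 ± 0.35 (SE), and its edgeR adjusted p of 0.181 did not pass the threshold. It was 0.47 without HSALR library 1 and 0.16 with the share of 7SL and 7SK in the model.

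Of the binding proteins, neither passed the test. Follistatin, the product of Fst (ENSMUSG00000021765, chr13:114588731-114595521, minus strand), binds activins and myostatin and keeps them from their receptors. Fst was at 5.23, 4.11 and 4.70 CPM in HSALR libraries 1, 2 and 3, and at 3.04, 4.84 and 2.75 CPM in WT libraries 1, 2 and 3. WT library 2 lay inside the HSALR range, so the groups overlapped. A log2 fold change of 0.40 ± 0.28 (SE; edgeR adjusted p = 0.360) took the other sign, -0.24, when TPM were used. That unit moved the median of all genes by -0.55, and relative to this shift the Fst value was 0.30.

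LTBP4 binds latent TGF-beta to the matrix, and in mice its gene is a known modifier of muscular dystrophy. Ltbp4 (ENSMUSG00000040488, chr7:27004086-27037117, minus strand) was at 224.7, 83.3 and 131.9 CPM in HSALR libraries 1, 2 and 3, against 64.7, 86.9 and 72.5 CPM in WT libraries 1, 2 and 3. HSALR libraries 1 and 3 were above every WT library, and HSALR library 2 was inside the WT range. On the log2 scale the fold change was 0.97 ± 0.33 (SE), with an edgeR adjusted p of 0.0940. This value depended on single libraries: it was 0.54 (adjusted p = 0.114) without HSALR library 1 and 1.25 (adjusted p = 0.0124) without HSALR library 2. DESeq2 gave 0.98 (adjusted p = 0.0134), and the model with the share of 7SL and 7SK gave 0.14 (adjusted p = 0.731). The summed CPM of the 6 fibroblast markers was 809.8, 285.7 and 368.3 in the same HSALR libraries and 216.6, 242.0 and 279.0 in the WT libraries. Ltbp4 per unit of that sum was 0.278, 0.292 and 0.358 in HSALR and 0.299, 0.359 and 0.260 in WT. The groups overlapped, as they already did in plain CPM. The macrophage marker sum and the share of 7SL and 7SK had the same order over the HSALR libraries as the fibroblast marker sum. The part of fibroblast or other cell content in the Ltbp4 values was not tested.

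**Figure D2:**
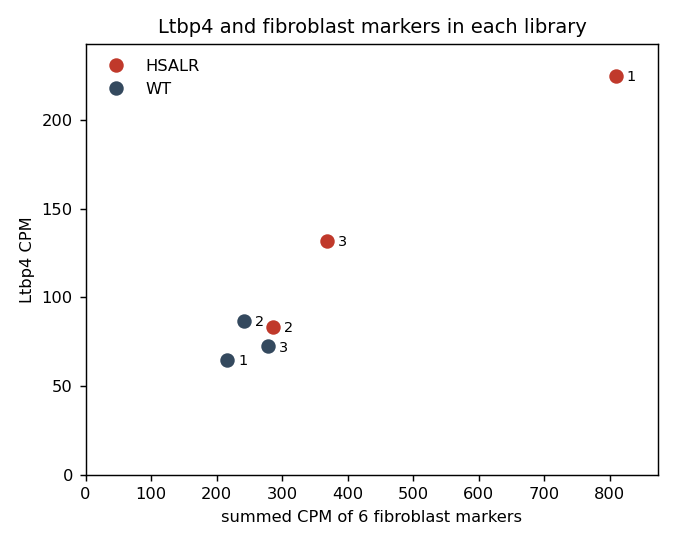
Ltbp4 level in CPM (vertical axis) against the summed CPM of 6 fibroblast markers (horizontal axis) in each of the 3 HSALR and 3 WT libraries, numbered by replicate; both axes start at 0. HSALR library 1 is highest on both axes at 809.8 and 224.7 CPM. HSALR library 2 lies inside the WT range on the vertical axis and, at 285.7 CPM, just above the highest WT library (279.0 CPM) on the horizontal axis.

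Among the receptors, the type II receptor gene Acvr2a fell to about 0.333 of its WT level, while Acvr2b and Acvr1b did not pass the test. ACVR2A and ACVR2B bind activins and myostatin, and ACVR1B (ALK4) is a type I receptor that pairs with them. Acvr2a (ENSMUSG00000052155, chr2:48703743-48793283, plus strand) stood at 18.2, 18.6 and 14.2 CPM in HSALR libraries 1, 2 and 3, against 59.0, 46.4 and 47.5 CPM in WT libraries 1, 2 and 3. The counts were 191, 230 and 212 in HSALR and 834, 701 and 639 in WT. The 3 HSALR libraries were close to each other, and the highest of them was far below the lowest WT library. The log2 fold change was -1.59 ± 0.16 (SE), with an edgeR adjusted p of 0.00278. Acvr2a was the only one of the 10 genes called under all 16 alternatives, with log2 fold changes of -2.15 to -1.46. Without HSALR library 1 the value was -1.63.

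Acvr2b (ENSMUSG00000061393, chr9:119231103-119271213, plus strand) was at 3.42, 7.99 and 10.6 CPM in HSALR libraries 1, 2 and 3, against 11.3, 7.95 and 12.5 CPM in WT libraries 1, 2 and 3. Only HSALR library 1, with 36 counts, lay below the WT range. Its log2 fold change of -0.51 ± 0.37 (SE) had an edgeR adjusted p of 0.371, and adding the share of 7SL and 7SK to the model turned it to 0.17, while without HSALR library 1 it was -0.17. Acvr1b (ENSMUSG00000000532, chr15:101071921-101111565, plus strand) was at 20.9, 33.2 and 23.6 CPM in HSALR libraries 1, 2 and 3 and at 42.3, 32.6 and 26.5 CPM in WT libraries 1, 2 and 3. The groups overlapped through HSALR library 2, and the log2 fold change was -0.38 ± 0.22 (SE; edgeR adjusted p = 0.257), and -0.07 with the share of 7SL and 7SK in the model.

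The annotation places genes on the opposite strand over parts of Fst (2 genes), Acvr1b (2), Acvr2a (1, the replication factor gene Orc4), Acvr2b (2) and Ltbp4 (3), and the miRNA gene Mir6962 on the same strand within Acvr1b. The library kit was stranded, but no source used here gives the strand setting of the counting, so reads from these pairs may not have been separated. Mstn, Tgfb1, Smad2, Smad3 and Smad7 had no such overlap.

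The 2 receptor-activated Smads differed: Smad3 fell to about 0.481 of its WT level, and Smad2 did not pass the test. Both carry the signal from the activated type I receptor to the nucleus. Smad3 (ENSMUSG00000032402, chr9:63554049-63665476, minus strand) stood at 54.8, 63.4 and 39.2 CPM in HSALR libraries 1, 2 and 3, against 98.5, 110.3 and 118.4 CPM in WT libraries 1, 2 and 3. The counts were 576, 786 and 584 in HSALR and 1393, 1666 and 1592 in WT. Every HSALR library was below every WT library. This gave a log2 fold change of -1.06 ± 0.18 (SE) with an edgeR adjusted p of 0.0123. Without HSALR library 1 it was -1.08 (adjusted p = 0.00799). The call was lost without WT library 1, 2 or 3 (-1.12, -1.05 and -0.99, with adjusted p of 0.0543, 0.0626 and 0.0687) and without HSALR library 3 (-0.89, adjusted p = 0.0549).

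Smad2 (ENSMUSG00000024563, chr18:76374327-76445180, plus strand) was at 22.8, 19.2 and 19.2 CPM in HSALR libraries 1, 2 and 3, against 18.0, 19.9 and 17.0 CPM in WT libraries 1, 2 and 3. WT library 2 was above HSALR libraries 2 and 3, and the groups overlapped. The log2 fold change was 0.15 ± 0.14 (SE; edgeR adjusted p = 0.465), and -0.44 with TPM, which is 0.11 relative to the shift of all genes in that unit. Smad7 is an inhibitory Smad that is induced by the pathway and turns off the receptors. Smad7 (ENSMUSG00000025880, chr18:75500374-75529006, plus strand) had 26 to 69 counts in HSALR and 61 to 74 in WT. Its level was 2.47, 2.50 and 4.63 CPM in HSALR libraries 1, 2 and 3, against 5.23, 4.90 and 4.54 CPM in WT libraries 1, 2 and 3. HSALR libraries 1 and 2 were below the WT range and HSALR library 3 was inside it. The log2 fold change was -0.60 ± 0.30 (SE; edgeR adjusted p = 0.202).

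**Figure D3:**
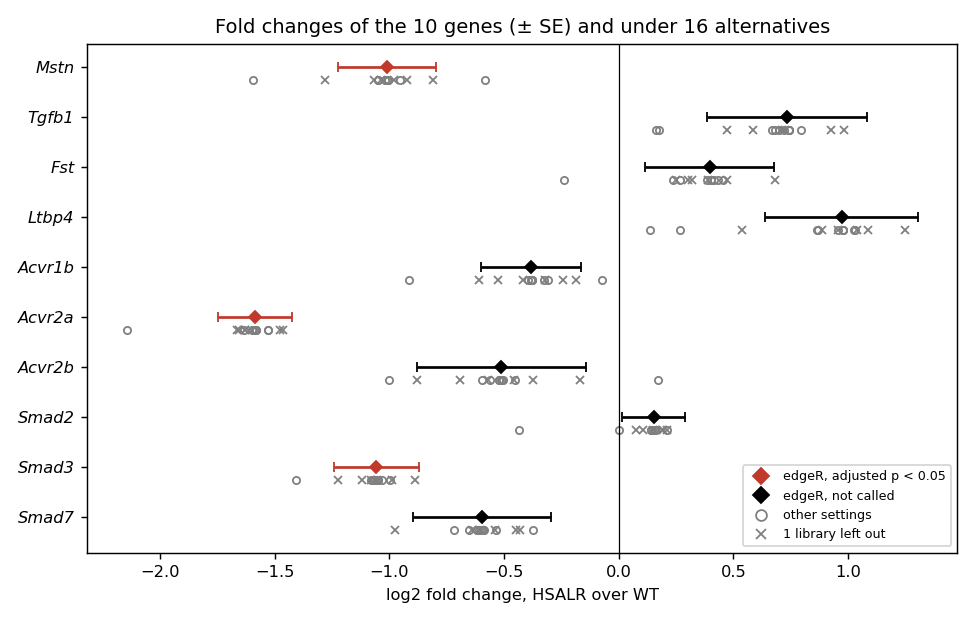
Log2 fold change of HSALR over WT (horizontal axis) for the 10 genes: diamonds with bars give the edgeR value ± SE, red where the adjusted p is below 0.05; open circles give 10 other settings and crosses 6 fits with a library left out. Acvr2a, Smad3 and Mstn are negative under all 16 alternatives, and Fst, Acvr2b and Smad2 have an alternative of the other sign.

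Ratios of 2 genes within a library do not depend on how libraries are scaled to each other. The TPM of Smad2 over that of Smad3 was 0.427, 0.343 and 0.617 in HSALR libraries 1, 2 and 3, against 0.257, 0.226 and 0.206 in WT libraries 1, 2 and 3. Each HSALR ratio was above each WT ratio, and the difference of 0.97 on the log2 scale had a two-sided exact permutation p of 0.1, the smallest that 3 against 3 libraries allow (0.267 adjusted over the 4 ratios). The ratio of Mstn to Fst was 2.79, 7.22 and 2.63 in HSALR and 11.1, 6.59 and 12.2 in WT. HSALR library 2 was above WT library 2, and the log2 difference of -1.36 had an exact permutation p of 0.2. With expected counts in place of TPM, the difference for Mstn over Fst was -1.50, with an exact permutation p of 0.1. The ratio of Acvr2a to Acvr2b was 3.30, 1.77 and 0.496 in HSALR and 3.33, 3.88 and 2.25 in WT, a log2 difference of -1.11 (exact permutation p = 0.2). HSALR library 1, where Acvr2b was lowest, lay inside the WT range. That difference was -0.35 without HSALR library 3 and -1.71 without HSALR library 1. The ratio of Tgfb1 to Ltbp4 was 0.0631, 0.0854 and 0.0787 in HSALR and 0.0698, 0.0851 and 0.0829 in WT, a log2 difference of -0.07 (exact permutation p = 0.7). With TPM, the adjusted p was 0.267 for both of the ratios with an unadjusted value of 0.2, and 0.7 for Tgfb1 over Ltbp4. Expected counts gave 1.23 for Smad2 over Smad3 (exact permutation p = 0.1) and -0.94 for Acvr2a over Acvr2b (exact permutation p = 0.3). For Tgfb1 over Ltbp4 the counts gave -0.17 (exact permutation p = 0.4).

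TPM corrects for transcript length and so allows the levels of different genes to be set side by side. In HSALR the order of mean TPM (± SD, n = 3) was Ltbp4 at 11.5 ± 2.3, Smad3 at 7.56 ± 2.47, Mstn at 5.55 ± 3.22, Smad2 at 3.34 ± 0.71, Acvr1b at 2.72 ± 1.44, Acvr2a at 1.82 ± 1.00, Acvr2b at 1.54 ± 1.10, Fst at 1.40 ± 0.72, Tgfb1 at 0.867 ± 0.177 and Smad7 at 0.680 ± 0.316. In WT it was Smad3 at 19.8 ± 3.3, Mstn at 14.8 ± 1.4, Ltbp4 at 9.57 ± 2.10, Acvr2a at 7.83 ± 1.35, Acvr1b at 4.79 ± 1.20, Smad2 at 4.49 ± 0.42, Acvr2b at 2.53 ± 0.27, Fst at 1.60 ± 0.56, Smad7 at 1.22 ± 0.70 and Tgfb1 at 0.767 ± 0.230. In HSALR every pair of neighbours in this order overlapped in range. In WT the neighbours Mstn and Ltbp4, Acvr2a and Acvr1b, Smad2 and Acvr2b, and Acvr2b and Fst did not overlap, while the other 5 pairs did. Acvr2a ranked below Smad2 and Acvr1b in HSALR and above both in WT. TPM add up to a fixed total in each library, in which 7SL and 7SK are included.

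The length of transcript that the counts were assigned to was read from the deposited tables. It was 2705 bases for Mstn and 4418 bases for Acvr1b in every library. For the other 8 genes the lengths of the HSALR libraries overlapped those of the WT libraries. Smad3 ranged over 2539 to 3404 bases in HSALR and 3324 to 3855 bases in WT, and Tgfb1 over 1977 to 2200 bases in HSALR and 2182 to 2236 bases in WT. Acvr2a ranged over 3471 to 5686 bases in HSALR and 3547 to 4498 bases in WT, and Smad7 over 1146 to 3684 bases in HSALR and 1723 to 3872 bases in WT. Among tested protein-coding genes of similar length to Acvr2a the median log2 fold change was -0.12, for Smad3 -0.07 and for Mstn -0.04. With the trend on length removed from each library, Mstn, Acvr2a and Smad3 were all still called.

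The rest of the pathway was read from 6 lists with 73 other genes, of which 65 were tested. Of these, 3 were called higher and 3 lower, 9.23% of those tested, against 11.8% of all genes. With DESeq2 the counts were 11 higher and 7 lower of the 65, against 1164 higher and 1264 lower of all 13576 tested genes, a larger share in the lists than over all genes. None of the 6 other ligands was called by edgeR, DESeq2 or limma-voom, and 1 was higher at an unadjusted p below 0.05. The 2 most abundant of them were Tgfb3, at a log2 fold change of 0.47 ± 0.15 (SE; edgeR adjusted p = 0.0703), and Tgfb2, at -0.23 ± 0.14 (adjusted p = 0.286). None of the 6 other receptors was called by edgeR or limma-voom, against 2 higher at an unadjusted p below 0.05 and 1 with DESeq2. The type II TGF-beta receptor gene Tgfbr2 was at 113.9, 51.0 and 64.7 CPM in HSALR and 42.9, 49.2 and 43.9 CPM in WT (log2 fold change 0.75 ± 0.27, SE; adjusted p = 0.105), and the co-receptor gene Tgfbr3 had 0.66 ± 0.27 (adjusted p = 0.141). Without HSALR library 2 both passed, at 0.97 (adjusted p = 0.0242) and 0.88 (0.0233). Without HSALR library 1 they were 0.36 (adjusted p = 0.107) and 0.29 (0.229), and with the share of 7SL and 7SK in the model 0.036 (0.916) and -0.043 (0.910). HSALR library 1 was the highest for Tgfbr2. It also had the highest fibroblast and macrophage marker sums and the highest share of 7SL and 7SK, and the part of each was not tested.

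**Figure D4:**
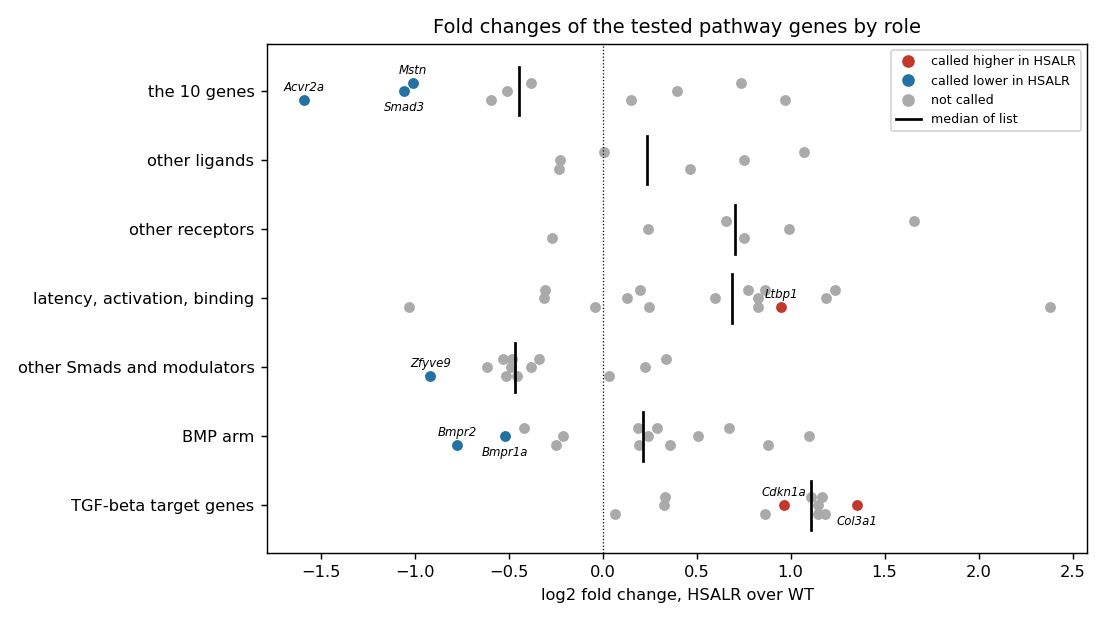
Log2 fold change of HSALR over WT (horizontal axis) for the tested genes of the pathway, grouped by role; each point is a gene, red or blue where edgeR called it higher or lower and grey otherwise, and vertical bars give the median of each list. The medians lie at -0.45 for the 10 genes, -0.47 for the other Smads and modulators and 1.11 for the TGF-beta target genes.

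Of 18 genes for latency, activation and binding of the ligands, 16 were tested. Of these 1 was called, 6.25%, against 11.8% of all tested genes. DESeq2 called 5 higher and 1 lower, the same numbers as at an unadjusted p below 0.05, and limma-voom called 1 higher. Over all 13576 tested genes DESeq2 called 1164 higher and 1264 lower, and limma-voom 455 higher. At an unadjusted p below 0.05, 2148 of all tested genes were higher and 2178 lower. Ltbp1, a relative of Ltbp4 that also holds latent TGF-beta, was at 62.0, 39.4 and 49.4 CPM in HSALR and 26.9, 26.7 and 24.4 CPM in WT. The HSALR libraries were all above the WT libraries, with a log2 fold change of 0.95 ± 0.17 (SE; edgeR adjusted p = 0.0137). With limma-trend on TPM the value was -0.34 (0.21 relative to the shift of all genes) and the gene was not called (adjusted p = 0.633). The edgeR call was also lost without any 1 of the WT libraries (adjusted p = 0.0725 to 0.0785) and without HSALR library 3 (0.0657). The matrix proteoglycan gene Dcn, the most abundant of the list, had 0.77 ± 0.39 (adjusted p = 0.215), which rested on HSALR library 1: without it the value was 0.13 (adjusted p = 0.536).

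Of 13 other Smads and Smad modulators, 12 were tested and 1 was called, 8.33% of those tested, against 11.8% of all tested genes. Zfyve9 encodes SARA, which anchors Smad2 and Smad3 at the receptor. Zfyve9 was lower, at 35.4, 51.3 and 38.1 CPM in HSALR and 84.6, 76.6 and 74.5 CPM in WT (log2 fold change -0.92 ± 0.16, SE; edgeR adjusted p = 0.0128), a call lost without WT library 1, 2 or 3 (adjusted p of 0.0809, 0.0626 and 0.0608) or HSALR library 3 (0.0714). DESeq2 called 4 genes of the list lower and limma-voom 1, against 1264 and 1019 lower of all 13576 tested genes. At an unadjusted p below 0.05, 7 were lower, against 2178 of all tested genes. In 6 of the 12, Zfyve9 included, every HSALR library was below WT. Over all tested genes the groups did not overlap for 37.8%, a share that holds both directions. The share of all genes that was lower without overlap was not counted. The list's median was -0.47. Ppm1a, a phosphatase that removes the activating phosphates of Smad2 and Smad3 and the most abundant of the list, had -0.62 ± 0.19 (adjusted p = 0.0636), -0.85 (0.00519) without HSALR library 2, -0.45 (0.0628) without HSALR library 1 and -0.28 (0.310) with the share of 7SL and 7SK in the model.

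The BMP arm uses its own type I receptors and Smads. Of 18 genes 14 were tested and 2 were called, 14.3% of those tested, against 11.8% of all tested genes. Both were receptor genes and both were lower. Bmpr2 was at 80.5, 85.4 and 73.2 CPM in HSALR and 140.3, 137.0 and 131.6 CPM in WT (log2 fold change -0.77 ± 0.13, SE; edgeR adjusted p = 0.0101). Bmpr1a was at 60.2, 67.8 and 52.6 CPM in HSALR and 88.3, 85.2 and 85.7 CPM in WT, with -0.52 ± 0.13 (adjusted p = 0.0405). In both genes the groups did not overlap, as was the case for 37.8% of all tested genes. Both calls were lost without any 1 of the WT libraries (adjusted p = 0.0589 to 0.0734 for Bmpr2 and 0.137 to 0.165 for Bmpr1a) and without HSALR library 3 (0.0618 and 0.118).

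Of 12 known TGF-beta target genes, 11 were tested and 2 were called, both higher. These were 18.2% of those tested, against 11.8% of all tested genes. At an unadjusted p below 0.05 there were 6 higher, with DESeq2 5 and with limma-voom 1. Over all 13576 tested genes these were 2148, 1164 and 455 higher. In 5 of the 11 the groups did not overlap, against 37.8% of all tested genes, and the list had a median log2 fold change of 1.11. Cdkn1a, the cell cycle inhibitor p21, was at 4.95, 6.21 and 6.45 CPM in HSALR and 2.48, 3.64 and 2.90 CPM in WT (log2 fold change 0.96 ± 0.25, SE; edgeR adjusted p = 0.0403). Col3a1, a fibrillar collagen gene, was at 2142, 784.2 and 1024 CPM in HSALR and 567.1, 514.3 and 463.4 CPM in WT (1.35 ± 0.35, adjusted p = 0.0456). Its order over the HSALR libraries was that of the fibroblast marker sum, with library 1 highest and library 2 lowest. That order was not particular to fibroblasts. The macrophage, endothelial, smooth muscle and pericyte, satellite cell, tenocyte and Schwann cell sums and the share of 7SL and 7SK had it too. By contrast, Cdkn1a was lowest in HSALR library 1. Without HSALR library 1 the log2 fold change of Col3a1 was 0.82 (adjusted p = 0.00662). Its call was lost with the share of 7SL and 7SK in the model (0.42, adjusted p = 0.121). It was also lost with limma-voom (1.23, adjusted p = 0.0518) and with limma-trend on TPM (0.73, adjusted p = 0.247). Both calls were lost without any 1 of the WT libraries (adjusted p = 0.0939 to 0.165) and without HSALR library 3 (0.113 for Cdkn1a and 0.0852 for Col3a1), and that of Cdkn1a also without HSALR library 2 (0.0502). The Cdkn1a call was further lost with limma-trend on TPM (0.34, adjusted p = 0.624), with the trend on length removed (0.87, 0.0584) and with the replicate block (0.97, 0.0688). The part of fibroblast or other cell content in these values was not tested.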

How the data were processed

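Total RNA from mouse quadriceps was sequenced after ribosomal RNA depletion with a stranded kit. The authors deposited 1 table per library from RSEM, with expected counts, TPM, FPKM and an abundance-weighted transcript length for each of 53947 genes. RSEM 1.3.1, Bowtie2 and the build GRCm39 are listed in the submitters' processing notes. Other settings are not given there. FPKM were not used. Expected counts were rounded to whole numbers (all 60 values of the 10 genes were whole, within 0.005). Totals were 11468959 to 15023710 counts, so that 3 counts correspond to 0.200 to 0.262 CPM, and the coefficient of variation between libraries of a group was 0.231. That coefficient is 1 value fitted over both groups. No 2 libraries agreed within sampling noise. The chi-square per degree of freedom was 9.07 to 10.7 between WT libraries and 27.8 to 177.2 between HSALR libraries, which were thus more spread.

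Groups were taken from the labels (HSALR and WT, 3 libraries each). The test was edgeR 4.0.16 (robust quasi-likelihood, filterByExpr, TMM scaling, group as the only term) in R 4.3.3 with Benjamini-Hochberg adjustment over 13576 genes. It was tested on simulated data first. Within-library ratios used the deposited TPM and an exact permutation test. Alternatives were DESeq2 1.42.0, limma 3.58.1 (voom, and limma-trend on log2(TPM + 0.1)), other scalings and filters, removal of a trend on length, a covariate, a replicate block and leaving out each library. CPM are scaled by TMM. Gene symbols and positions are from GENCODE on GRCm39. Named genes are the 10 genes and, from each further list, the called genes with the lowest p (up to 4) and the gene with the highest mean TPM, or the 2 with the highest where none was called. The genes, lists and tests were chosen with earlier results of these data known. A gene of the target list is not reported here and was left out of the list's counts.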

Additional observations from a re-analysis of the deposited data

How the results depend on the processing

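The number of genes called in all, 1597 with edgeR, was 2428 with DESeq2, 519 with limma-trend on TPM, 935 with the share of 7SL and 7SK added to the model, and 166 to 3294 when a library was left out. The 3 calls among the 10 genes became 4 with DESeq2 (Ltbp4 added), 2 with that covariate (Mstn lost) and 1 to 4 when a library was left out. Without WT library 1, 2 or 3 or HSALR library 3, only Acvr2a was called. There the adjusted p of Mstn was 0.0794 to 0.113 and that of Smad3 0.0543 to 0.0687. Without HSALR library 2, Ltbp4 was added. The replicate block reduced the calls to 799 and kept all 3 of the 10 genes. The deviations of same-numbered libraries from their group means correlated at 0.00052, -0.095 and 0.23 for numbers 1, 2 and 3. Differently numbered libraries correlated at -0.17 to 0.16, so the value for number 3 was the highest. These correlations cannot settle whether a number marks a shared batch or litter. The share of higher genes among the calls was 36.4% in edgeR with TMM, 48.2% in edgeR with upper-quartile factors and 9.63% in limma-trend on TPM.

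Over the 10 genes and 16 alternatives, 146 of 160 values kept their direction and their side of the threshold, 9 lost the call, 2 gained it and 3 changed sign. Under limma-trend on TPM the sign changed for Fst (-0.24), Smad2 (-0.44), Tgfb3 (-0.084), Tgfbr3 (-0.011) and Ltbp1 (-0.34), in a unit that moved the median of all genes by -0.55, and relative to that shift all 5 were positive. With the covariate it changed for Acvr2b (0.17), Tgfbr3 (-0.043) and Dcn (-0.32). When a library was left out, the difference in the log2 ratio ran from -1.83 to -1.10 for Mstn over Fst, -1.71 to -0.35 for Acvr2a over Acvr2b and 0.74 to 1.17 for Smad2 over Smad3. The difference in the log2 ratio of Tgfb1 to Ltbp4 ran from -0.16 to 0.054 when a library was left out, positive without HSALR library 1. The cause of these changes was not tested. Of the other called genes, Bmpr1a lost its call in 9 of 16 alternatives, Cdkn1a and Col3a1 in 8, Bmpr2 in 5 and Zfyve9 in 4. Ltbp1 lost it in 4, and in 1 more, limma-trend on TPM, it changed sign and was not called either (adjusted p = 0.633). Counts of 26 to 74 limit what can be told of Smad7, Tgfb1 and Fst.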
